A study of Mus musculus with 21 samples.

Results

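The mRNA response to loss of RPLP0 was described across all genes of E14 cells, a line of mouse embryonic stem cells. The genotype label of both groups reads RPLP0-AID/RPS26-Tir1, so treated and control cells alike carry RPLP0 with an auxin-inducible degron and the auxin receptor Tir1 together with RPS26, a system the labels call Ribo-Tweezer. The treated group had 8 h of the auxin indole-3-acetic acid (IAA), which marks a degron-tagged protein for destruction, and the control group had DMSO, the solvent, for the same time. Each group holds 3 libraries of polyadenylated RNA, which are 6 of the 21 samples of the series. The labels say neither whether the line is a single clone nor whether the replicates are separate cultures, so the FDRs below may cover only technical spread between these libraries. A degron-free line was not analysed here, so effects of IAA on its own and of RPLP0 loss cannot be told apart.

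The members are the 12335 genes with a usable symbol among the 12353 rows of the table for this line, and the tables of all 3 lines (RPLP0, RPLP1 and RACK1) together name 13232 genes. The authors deposited only their own comparison of the groups, which gives a gene's mRNA change as a log2 fold change with a false discovery rate (FDR, a p-value adjusted over many genes). No value per library and no total count was used, so the level of a gene in each sample and the depth behind it are unknown, and every gene value below is a change and not a level. A positive log2 change is read as higher after IAA. A gene is said to have risen or fallen where the authors' FDR is under 0.05. The implied standard error (SE) of a change is the error that its size and FDR together imply.

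RPLP0 is the base of the stalk of the large ribosomal subunit. It anchors dimers of RPLP1 and RPLP2, whose flexible tails recruit the translation factors that hydrolyse GTP, and the stalk is also known to activate GCN2, the kinase upstream of the transcription factor ATF4. Disturbed ribosome assembly is known to release other large-subunit proteins that bind Mdm2, the ubiquitin ligase of p53. Embryonic stem cells divide fast with a short G1 phase, and rely on high glycolysis and on constant protein synthesis.

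The response involved many genes and small changes. Of the 12335 genes 1224 passed, a background of 9.92%, with 622 higher (5.04%) and 602 lower (4.88%). The median change over all genes was 0.0015 and the quartiles were -0.12 and 0.13. Among the genes that passed, the median size of the change was 0.319, and 44 of them changed by more than 1, 30 upwards and 14 downwards. The median implied SE was 0.105 over all genes. Of the genes in the quartile with the largest implied SE 2.82% passed, against 14.8% in the second lowest quartile, so a gene with a large error that did not pass may still have changed.

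**Figure D1:**
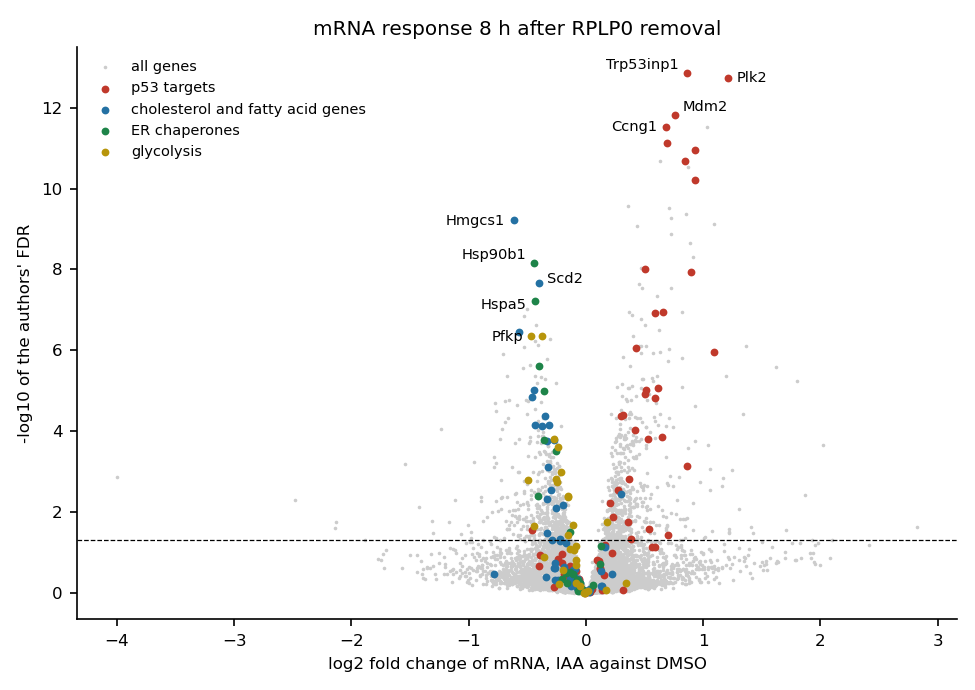
Each point is a gene; the horizontal axis is the log2 fold change of mRNA (IAA against DMSO, RPLP0 line) and the vertical axis is the negative log10 of the authors' FDR, with the dashed line at FDR 0.05. Red points are p53 targets and regulators of p53, which reach the smallest FDRs on the right. Cholesterol and fatty acid genes (blue), chaperones of the endoplasmic reticulum (green) and glycolysis genes (ochre) lead on the left.

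The mRNAs of the stalk did not pass the test. The degron acts on the protein, so the mRNA of Rplp0, at -0.08 (FDR 0.12) in the authors' deposited table, does not check its removal. Its partners in the stalk were at 0.03 for Rplp1 (FDR 0.75) and -0.04 for Rplp2 (FDR 0.67) in the authors' deposited table. Rpl12, which sits at the stalk base, was at 0.07 (FDR 0.33) and Rps26, the partner of the Tir1 label, at 0.08 (FDR 0.22), again in the authors' deposited table. The median implied SE of these 6 mRNAs (the 5 above and Rack1) was 0.0423, so they are among the precisely measured genes.

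Targets of p53 rose as a group. The p53 lists hold 67 measured genes, among them feedback regulators that act on p53 and the p53 gene Trp53, so not all are targets. Of the 67 genes 32 rose (47.8%) and 1 fell, with a median change of 0.23. Of the 40 measured at least as precisely as the median gene 17 rose. Of the 15 risen genes with the smallest FDR, 8 are on these lists. The leading member, Trp53inp1, a cofactor that promotes p53 activity and autophagy, rose by 0.86 ± 0.10 (implied SE; FDR 1.39e-13), or 1.82-fold, in the authors' deposited table. Trp53 itself, at 0.01 (FDR 0.96) in the authors' deposited table, did not pass.

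Feedback regulators of p53 divided by gene. Mdm2, the ligase that marks p53 for destruction, rose by 0.76 ± 0.09 (implied SE; FDR 1.55e-12) in the authors' deposited table. Rchy1 (Pirh2), a further p53 ubiquitin ligase, rose by 0.52 (FDR 9.49e-06) and cyclin G1 (Ccng1), which recruits a phosphatase to Mdm2, by 0.68 (FDR 2.94e-12) in the authors' deposited table. Mdm4, the inhibitory partner of Mdm2, was at 0.11 (FDR 0.16) and the phosphatase Ppm1d at 0.22 (FDR 0.1) in the authors' deposited table. In all 4 of 12 feedback regulators rose and none fell.

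Targets that act in arrest, growth control and repair rose in 17 of 34 cases and fell in 1, with a median of 0.31. Plk2, a polo-like kinase induced by stress, rose by 1.21 ± 0.14 (implied SE; FDR 1.85e-13), or 2.31-fold, in the authors' deposited table. Phlda3, a repressor of Akt signalling, rose by 0.93 (FDR 1.11e-11), and Btg2, an antiproliferative factor that recruits the deadenylase complex, by 0.90 (FDR 1.15e-08) in the authors' deposited table. Psrc1, a microtubule-binding protein, rose by 0.69 (FDR 7.68e-12) and Sesn2, an inhibitor of mTORC1 and a target of both p53 and ATF4, by 0.50 (FDR 9.93e-09) in the authors' deposited table. The best known arrest gene of the list, Cdkn1a (p21), rose by 0.54 (FDR 0.026) with a wide implied SE of 0.17 in the authors' deposited table. Sesn1, the relative of Sesn2, was the single target that fell, at -0.46 (FDR 0.0279) in the authors' deposited table. DNA damage genes that p53 also controls did not all move: the authors' deposited table has Gadd45a at -0.05 (FDR 0.66), Xpc at -0.24 (FDR 0.14), Plk3 at -0.20 (FDR 0.11) and Ddb2 at 0.59 (FDR 0.071).

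Targets that act in cell death rose in 11 of 21 cases, with none lower and a median of 0.27. The receptor Eda2r, at 0.85 ± 0.11 (implied SE; FDR 2.08e-11), and the death receptor Tnfrsf10b, at 0.51 (FDR 1.19e-05), rose in the authors' deposited table. Perp, a tetraspan membrane protein of p53-dependent apoptosis, rose by 0.93 (FDR 6.22e-11) in the authors' deposited table. The intrinsic pathway was represented by Bbc3 (Puma), up by 0.53 (FDR 0.000155), and by Apaf1, the scaffold of the apoptosome, up by 0.42 (FDR 9.34e-05) in the authors' deposited table. Trp73, a relative of p53, rose by 1.10 (FDR 1.09e-06) in the authors' deposited table. Fas, at 0.32 (FDR 0.83), and Casp8, at -0.27 (FDR 0.7), did not pass in the authors' deposited table.

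Genes of the G1 to S transition fell more often than they rose. Of 33 measured genes 10 fell (30.3%) and 3 rose, with a median of -0.08, and 4 fell at an FDR under 0.01. All 3 D-type cyclins, the activators of Cdk4 and Cdk6, fell: Ccnd1 by 0.51 (FDR 9.37e-08), Ccnd2 by 0.69 (FDR 1.82e-05) and Ccnd3 by 0.20 (FDR 0.0131) in the authors' deposited table. Cyclin E1 (Ccne1) fell by 0.38 (FDR 4.56e-06) and the Cdk2-activating phosphatase Cdc25a by 0.25 (FDR 0.00521) in the authors' deposited table. The 3 that rose are all brakes on this transition: beside Cdkn1a these were Rb1, the retinoblastoma protein, at 0.74 ± 0.15 (implied SE; FDR 7.82e-05), and its relative Rbl2 (p130), at 0.62 ± 0.17 (implied SE; FDR 0.00722), in the authors' deposited table. Cdkn1c (p57), also an inhibitor, fell by 0.51 (FDR 0.0132), per the authors' deposited table.

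Among replication genes 7 of 52 fell and 1 rose, with a median of -0.07. The lower members include Uhrf1, given below with DNA methylation, and the chromatin assembly subunit Chaf1b, at -0.23 (FDR 0.0346) in the authors' deposited table. Gmnn, the inhibitor of relicensing, fell by 0.32 (FDR 0.000417), the loader Cdc6 by 0.29 (FDR 0.00585) and the origin recognition subunit Orc1 by 0.25 (FDR 0.00274) in the authors' deposited table. The helicase subunits Mcm2, at -0.13 (FDR 0.12), and Mcm3, at -0.06 (FDR 0.46), did not pass in the authors' deposited table. Of 55 mitosis genes 5 were higher and 4 lower, beside 5.04% and 4.88% of all genes, with a median of -0.01. The proliferation factor Myc fell by 0.48 (FDR 0.000137) and its dimer partner Max by 0.24 (FDR 0.0069) in the authors' deposited table, and 4 of 13 genes of the Myc network fell with none higher.

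**Figure D2:**
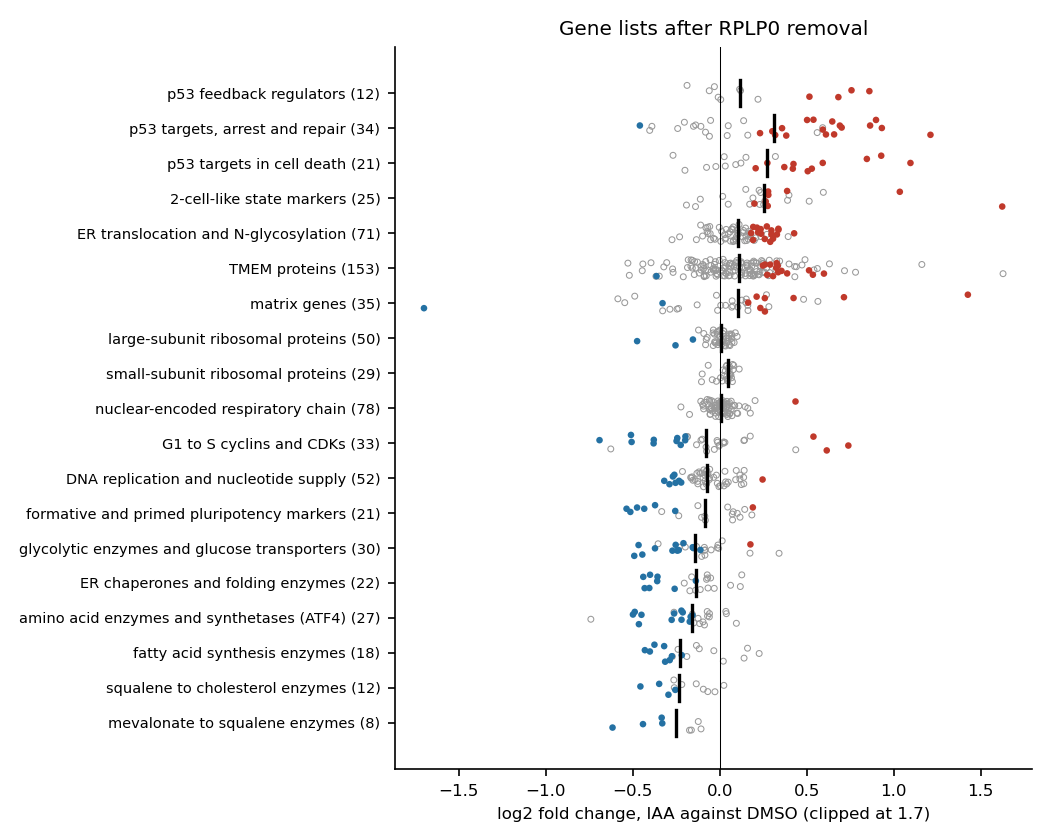
Each point is a gene of the named list (number of measured members in brackets), placed by its log2 fold change after RPLP0 removal; filled points passed the authors' FDR of 0.05 (red higher, blue lower), open points did not, and black bars are medians. The 3 p53 lists have medians of 0.12, 0.31 and 0.27 and the 2 lists of cholesterol enzymes -0.25 and -0.24, while ribosomal proteins and respiratory chain genes stay near 0. The matrix gene Matn2, at -2.48, is drawn at the edge. The list of translocation and N-glycosylation was drawn up after the values were seen.

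Genes of lipid synthesis fell more often than they rose. Of 34 listed cholesterol genes 11 fell (32.4%) and 1 rose, with a median of -0.18. All 8 listed enzymes from acetyl-CoA to squalene had a change below 0, and 4 of them passed. Hmgcs1, which makes HMG-CoA, was the fallen gene with the smallest FDR in the whole table, at -0.62 ± 0.09 (implied SE; FDR 6.15e-10), or 1.54-fold lower, in the authors' deposited table. Idi1, the isomerase that supplies the isoprene units, fell by 0.44 (FDR 9.3e-06), per the authors' deposited table. Past squalene 4 of 12 enzymes fell, among them Msmo1, at -0.46 (FDR 1.43e-05), and the squalene epoxidase Sqle, at -0.35 (FDR 4.2e-05), in the authors' deposited table.

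Of 14 listed genes of sterol regulation and transport 3 fell and 1 rose. Insig1, which retains the transcription factor SREBP in the endoplasmic reticulum when sterols are high, fell by 0.57 (FDR 3.56e-07), per the authors' deposited table. Stard4, a sterol carrier, fell by 0.33 (FDR 0.00486) and Mbtps1, the protease that first cleaves SREBP in the Golgi, by 0.19 (FDR 0.00654), per the authors' deposited table. Scap, the escort that carries SREBP to the Golgi, was the exception and rose by 0.30 (FDR 0.00347) in the authors' deposited table. The genes of SREBP itself, Srebf1 at -0.10 (FDR 0.38) and Srebf2 at -0.05 (FDR 0.55), did not pass in the authors' deposited table.

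Fatty acid synthesis fell too, with 8 of 18 enzymes lower (44.4%), none higher and a median of -0.23. The whole route from citrate to palmitate was lower: the authors' deposited table gives -0.31 for ATP citrate lyase Acly (FDR 7e-05), -0.38 for acetyl-CoA carboxylase Acaca (FDR 7.37e-05) and -0.27 for fatty acid synthase Fasn (FDR 0.000162). The desaturases fell too, Scd2 by 0.40 ± 0.06 (implied SE; FDR 2.17e-08) and Scd1 by 0.32 (FDR 0.000779) in the authors' deposited table. Acsl3, which activates long-chain fatty acids, fell by 0.43 (FDR 7.08e-05), per the authors' deposited table. The elongase genes Elovl5, at 0.16 (FDR 0.074), and Elovl1, at 0.23 (FDR 0.35), did not pass in the authors' deposited table.

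**Figure D3:**
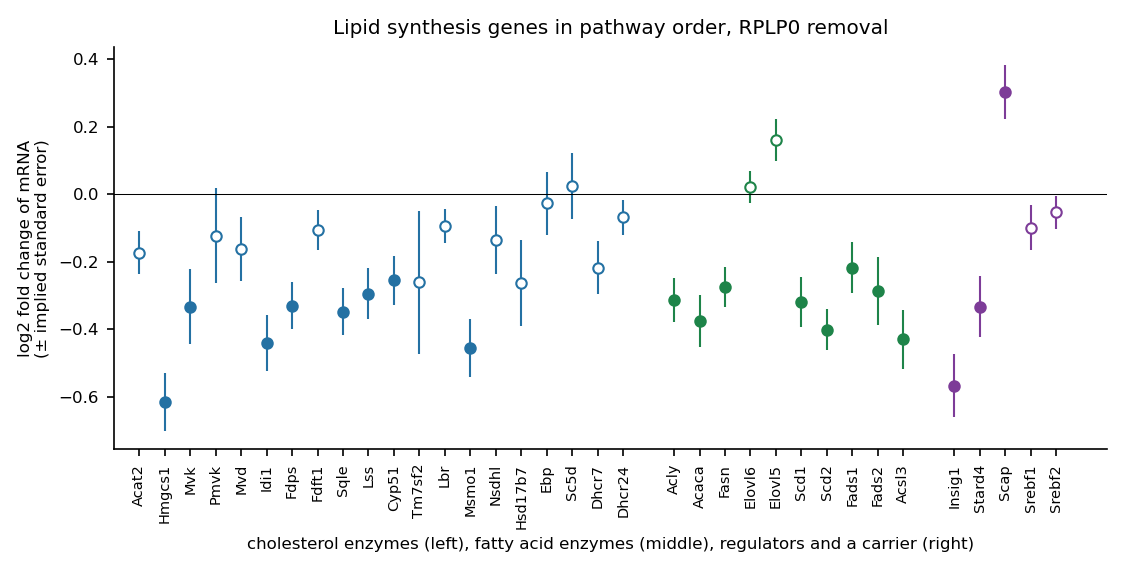
Points are the log2 fold changes of cholesterol enzymes (blue, in pathway order), fatty acid enzymes (green) and regulators with a sterol carrier (purple) after RPLP0 removal; bars are plus and minus 1 implied SE, and filled points passed the authors' FDR of 0.05. Of the genes drawn, the filled points below 0 run from Hmgcs1 at -0.62 to Fads1 at -0.22, and Scap, at 0.30, is the single filled point above 0.

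The endoplasmic reticulum, where membrane and secreted proteins are made, had falling mRNAs among its chaperones. Rising ones in its import machinery are described further below, from a list drawn up after the values were seen. Of 22 chaperones and folding enzymes 8 fell (36.4%) and none rose, with a median of -0.14. Hsp90b1 (GRP94) fell by 0.44 ± 0.06 (implied SE; FDR 7.03e-09) and Hspa5 (BiP), the Hsp70 of this compartment, by 0.43 ± 0.07 (implied SE; FDR 5.99e-08) in the authors' deposited table. The disulfide isomerases Pdia6, at -0.40 (FDR 2.43e-06), and Pdia4, at -0.36 (FDR 9.95e-06), and the lectin chaperone Calr, at -0.26 (FDR 0.000315), fell with them in the authors' deposited table. Canx, the membrane-bound relative of Calr, was at 0.13 (FDR 0.068) in the authors' deposited table and did not pass. Among sensors and degradation factors 2 of 18 fell and 2 rose, with Xbp1, the transcription factor of the unfolded protein response, at -0.41 (FDR 5.44e-05) and Herpud1 at -0.95 (FDR 0.000572) in the authors' deposited table.

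The promoters of these chaperones are shown because several share the endoplasmic reticulum stress element (CCAAT, then any 9 bases, then CCACG), to which NF-Y and ATF6 are known to bind. The element was searched on both strands in the 250 bases before the start of each gene, in RefSeq promoters of build GRCm38.p6, the build of the reference table and not necessarily that of the authors. It occurs in 37 of 32851 promoters (0.113%), and in 7 of the 17 chaperone genes that have a promoter in the table. These 7 are Hspa5, Hsp90b1, Calr, Canx, Pdia6, Dnajc3 and Creld2, of which 4 fell. Of the 9723 measured genes with a promoter 17 hold the element, with a median change of -0.14. Of the 17, 4 fell and none rose. These 4 are the chaperones just counted, so no measured gene with the element outside that list fell. The promoters of the 4 that fell follow, 5′ to 3′ on the strand of the gene, with each match in capitals. Hsp90b1 has a match on each strand, Calr a match on the minus strand of the gene, and the others a match on the plus strand.
Hspa5, chr2:34771840-34772089, plus strand: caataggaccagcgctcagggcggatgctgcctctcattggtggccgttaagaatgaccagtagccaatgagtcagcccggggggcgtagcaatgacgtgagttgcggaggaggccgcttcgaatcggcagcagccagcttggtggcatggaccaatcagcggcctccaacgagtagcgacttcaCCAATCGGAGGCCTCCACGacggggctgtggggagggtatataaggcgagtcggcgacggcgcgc
Hsp90b1, chr10:86705445-86705694, minus strand: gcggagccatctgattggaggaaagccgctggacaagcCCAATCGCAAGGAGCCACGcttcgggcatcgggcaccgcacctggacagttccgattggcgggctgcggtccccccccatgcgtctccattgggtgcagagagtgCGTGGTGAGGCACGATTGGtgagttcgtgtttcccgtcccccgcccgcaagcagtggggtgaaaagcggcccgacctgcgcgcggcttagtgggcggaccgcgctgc
Calr, chr8:84846932-84847181, minus strand: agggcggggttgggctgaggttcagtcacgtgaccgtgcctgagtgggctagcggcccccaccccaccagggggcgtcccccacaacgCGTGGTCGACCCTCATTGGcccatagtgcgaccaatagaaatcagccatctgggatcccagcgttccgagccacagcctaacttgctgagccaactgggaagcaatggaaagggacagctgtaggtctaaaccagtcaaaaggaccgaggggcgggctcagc
Pdia6, chr12:17266339-17266588, plus strand: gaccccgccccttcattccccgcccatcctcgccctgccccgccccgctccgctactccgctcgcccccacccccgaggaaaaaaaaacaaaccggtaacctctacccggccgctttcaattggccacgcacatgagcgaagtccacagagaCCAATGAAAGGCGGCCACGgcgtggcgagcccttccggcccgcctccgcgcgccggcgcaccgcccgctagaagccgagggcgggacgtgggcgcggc
A sterol regulatory element in the form TCACNCCAC, the site of SREBP, was searched for in the same way. It occurs in 346 promoters (1.05%), and among the lipid genes with a promoter it was found in Hmgcs1 alone, which is 1 of 6 enzymes of the mevalonate route and none of 10 sterol enzymes, 10 regulators and 14 fatty acid enzymes. Of the 124 measured genes with this element 10 rose and 15 fell, with a median of -0.03. Over all genes of the line 5.04% rose and 4.88% fell. An amino acid response element in the form TGATGNAAT, searched likewise, occurs in 268 promoters (0.816%), and of the 45 measured genes with it 1 rose and 2 fell, with a median of 0.06. The promoter of Hmgcs1, the lipid gene with the smallest FDR, is shown with its match in capitals. A match is a description of the letters and shows no binding.
Hmgcs1, chr13:119690101-119690350, plus strand: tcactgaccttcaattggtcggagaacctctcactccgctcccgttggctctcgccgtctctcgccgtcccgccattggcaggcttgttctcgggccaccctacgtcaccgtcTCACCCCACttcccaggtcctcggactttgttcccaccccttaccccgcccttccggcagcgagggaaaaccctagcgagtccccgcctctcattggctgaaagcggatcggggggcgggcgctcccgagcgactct

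The machinery that takes proteins into the endoplasmic reticulum and adds sugars to them had members that rose and none that fell. This list of 71 genes was drawn up after the values had been seen and is a description only: 17 rose (23.9%), none fell and the median was 0.10. The oligosaccharyltransferase, which attaches N-linked sugars, rose in its catalytic subunit Stt3a, by 0.30 (FDR 0.000124), and in Rpn1, by 0.24 (FDR 0.00232), in the authors' deposited table. Ganab, the glucosidase that trims those sugars, rose by 0.30 ± 0.06 (implied SE; FDR 4.22e-05) in the authors' deposited table. Parts of the channel complex rose as well, the translocon-associated subunit Ssr2 by 0.27 (FDR 0.00013) and Tmco1, Ccdc47 and Nomo1, which assist insertion of multi-pass membrane proteins, by 0.33 (FDR 0.000279), 0.29 (FDR 0.00144) and 0.26 (FDR 0.00161) in the authors' deposited table. Other channel subunits did not pass, with Sec61b at -0.06 (FDR 0.68) and Sec61g at -0.07 (FDR 0.51) in the authors' deposited table. Among proteins that use this route 14 of 153 TMEM membrane proteins rose and 1 fell, with a median of 0.11, and 21 of 221 solute carriers rose and 8 fell, with a median of 0.04.

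Enzymes of amino acid synthesis and aminoacyl-tRNA synthetases that ATF4 controls were lower, 12 of 27 (44.4%) with none higher and a median of -0.16, and 7 at an FDR under 0.01. Gpt2, the mitochondrial alanine transaminase, fell by 0.49 (FDR 0.0002), Pck2, the mitochondrial phosphoenolpyruvate carboxykinase, by 0.50 (FDR 0.00204) and Mthfd2 of the mitochondrial folate cycle by 0.45 (FDR 0.000993) in the authors' deposited table. The alanyl-tRNA synthetase Aars fell by 0.22 (FDR 0.00176), per the authors' deposited table. The serine synthesis enzymes Phgdh, at -0.16 (FDR 0.13), and Psat1, at -0.15 (FDR 0.052), did not pass in the authors' deposited table. The ATF4 element TGATGNAAT was found in 3 of 20 of these genes with a promoter, and in 45 of all 9723 measured genes with one. Of the 3, Aars fell. Gars, at -0.07 (FDR 0.38), and Pycr1, at 0.04 (FDR 0.91), did not pass in the authors' deposited table.

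Stress factors under ATF4 did not move as a unit. Chac1, which breaks down glutathione and is a sensitive ATF4 target, fell by 1.54 ± 0.36 (implied SE; FDR 0.000662), per the authors' deposited table. Ddit4 (REDD1), an inhibitor of mTORC1 that p53 also induces, rose by 0.60 (FDR 4.18e-06) and Atf5 by 0.36 (FDR 0.0149) in the authors' deposited table. Atf4 itself, at 0.13 (FDR 0.12), and Ddit3 (CHOP), at -0.29 (FDR 0.67), did not pass in the authors' deposited table. Of 20 amino acid transporters 3 fell and 2 rose. The neutral amino acid carriers Slc1a5, at -0.41 (FDR 0.000132), and Slc1a4, at -0.63 (FDR 0.000779), fell, while the starvation-induced Slc38a2 rose by 0.25 (FDR 0.000298) in the authors' deposited table.

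Glycolysis genes fell more often than they rose, with 13 of 30 listed genes down (43.3%), 1 up and a median of -0.14. Beside enzymes and glucose transporters the list holds lactate carriers and pyruvate dehydrogenase kinases. Of these Slc16a3, at -0.24 (FDR 0.00179), and Pdk1, at -0.27 (FDR 0.000154), fell in the authors' deposited table. Pfkp, a phosphofructokinase, fell by 0.47 ± 0.08 (implied SE; FDR 4.52e-07) and triose phosphate isomerase Tpi1 by 0.37 ± 0.06 (implied SE; FDR 4.45e-07) in the authors' deposited table. The hexokinases that commit glucose fell, Hk1 by 0.49 (FDR 0.0016) and Hk2 by 0.25 (FDR 0.00149), as did lactate dehydrogenase Ldha, by 0.24 (FDR 0.000248), in the authors' deposited table. Slc2a3 (GLUT3) was the gene that rose, by 0.18 (FDR 0.0177) in the authors' deposited table. Hypoxia-inducible genes overlap with this list in function: of 23 others 5 fell and 2 rose, among them Egln3, a prolyl hydroxylase that HIF itself induces, at -0.67 (FDR 4.8e-05), and the mitophagy receptor Bnip3, at -0.41 (FDR 9.41e-05), in the authors' deposited table.

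Pluripotency factors mostly did not pass. The core factors Pou5f1, at 0.00 (FDR 1), Sox2, at -0.02 (FDR 0.82), and Nanog, at -0.04 (FDR 0.64), did not pass in the authors' deposited table, and 1 of 12 core factors rose. Naive factors divided, with 4 of 29 lower and 3 higher. Tfcp2l1 fell by 0.42 ± 0.07 (implied SE; FDR 2.32e-07) and Klf2 by 0.21 (FDR 0.00568), whereas the LIF receptor Lifr rose by 0.31 (FDR 0.0044) in the authors' deposited table. Formative and primed markers fell in 6 of 21 cases (28.6%) and rose in 1, with a median of -0.09. The Nodal antagonists Lefty1, at -0.54 (FDR 2.8e-06), and Lefty2, at -0.47 (FDR 0.000179), led that list together with the de novo methyltransferases in the authors' deposited table.

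DNA methylation enzymes were lower, both those that place and those that maintain the mark. Dnmt3a fell by 0.43 ± 0.08 (implied SE; FDR 2.82e-05) and Dnmt3b by 0.37 ± 0.08 (implied SE; FDR 0.000131), which place new methylation, in the authors' deposited table. Dnmt1, which copies methylation after replication, fell by 0.21 (FDR 0.00563) and its recruiter Uhrf1 by 0.26 (FDR 0.000135) in the authors' deposited table. Tet2, which oxidises the mark, rose by 0.24 (FDR 0.000808) in the authors' deposited table. Of 14 writers and erasers 4 fell and 1 rose. Among 27 germline genes that methylation is known to silence 2 rose and 25 did not pass, a share near the 5.04% of all genes that rose. The 2 were Hormad1, up by 0.55 (FDR 0.000104), and Dazl, up by 0.33 (FDR 0.000912), in the authors' deposited table.

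Of 25 markers of the 2-cell-like state 8 rose (32.0%) and none fell, with a median of 0.25, and 5 of the 8 measured at least as precisely as the median gene rose. The list is uneven. Its leading members, Zfp365 at 1.04 ± 0.13 (implied SE; FDR 2.94e-12) and Zfp750 at 1.62 ± 0.29 (implied SE; FDR 2.55e-06) in the authors' deposited table, are known from genome stability and from epidermal differentiation and do not define that state. Its defining family rose less: the authors' deposited table has Zscan4c at 0.28 (FDR 0.000642), Zscan4e at 0.28 (FDR 0.0028) and Zscan4d at 0.26 (FDR 0.0105). These copies are near-identical, so reads may be divided among them and their values are uncertain and not independent. Duxf3, at 0.02 (FDR 0.98), Zfp352, at 0.25 (FDR 0.29), and Tcstv3, at 0.39 (FDR 0.093), are among the members that did not pass in the authors' deposited table.

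Matrix and adhesion genes rose more often than they fell. Of 35 matrix genes 8 rose and 2 fell, with a median of 0.10, and of 26 integrin and focal adhesion genes 5 rose and 1 fell, with a median of 0.07. The laminin chains Lamb1, by 0.26 (FDR 0.00104), Lamc1, by 0.21 (FDR 0.00146), and Lama1, by 0.26 (FDR 0.00248), rose in the authors' deposited table. Some other basement membrane genes did not pass there, such as the laminin chain Lama5, at -0.02 (FDR 0.86), and the collagen Col4a1, at -0.01 (FDR 0.96). The actin crosslinkers Flna, up by 0.32 ± 0.06 (implied SE; FDR 1.44e-06), and Actn4, up by 0.26 (FDR 4.66e-05), rose with cytoplasmic actins, Actg1 by 0.22 (FDR 3.64e-05) and Actb by 0.14 (FDR 0.00525) in the authors' deposited table. Tubulins went the other way: all 6 tubulin and actin genes that fell are tubulins, including the main tubulin Tubb5, at -0.21 (FDR 7.37e-05), and Tubb3, at -0.35 (FDR 0.000328), in the authors' deposited table.

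Few mRNAs of the protein synthesis machinery itself passed. Of 29 small-subunit ribosomal protein genes none passed (median 0.05), and of 50 large-subunit genes 3 fell (median 0.01), led in the authors' deposited table by Rpl22l1 at -0.47 (FDR 2.35e-06) and Rpl3 at -0.25 (FDR 6.42e-06). Rpl22l1 is the paralogue of Rpl22, and its change is the largest in size among these ribosomal protein genes. Elongation and termination factors had 1 of 23 lower, initiation factors 2 of 47 higher and 2 lower, and ribosome biogenesis factors 8 of 114 higher and 4 lower, counts near the background. The nuclear-encoded respiratory chain had 1 of 78 higher and 0 of 13 mitochondrially encoded genes passed. Among 29 sensors and rescue factors of stalled ribosomes 1 rose and 1 fell. Map3k20 (ZAK), the kinase of the ribotoxic stress response, rose by 0.65 (FDR 0.00861), and the segregase Vcp was lower, at -0.18 (FDR 0.00647), in the authors' deposited table. Replication-dependent histones had a median implied SE of 0.626 and 1 of 47 passed, and they lack poly(A) tails and are poorly sampled by polyadenylated RNA.

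Further genes stand out by their FDR or by the size of their change. The atypical cadherin Fat1 rose by 0.66 ± 0.08 (implied SE; FDR 2.92e-12), the syndecan Sdc4 by 0.87 (FDR 3.01e-11), the thiamine transporter Slc19a2 by 0.71 (FDR 3.07e-10) and endoglin (Eng), a TGF-beta co-receptor, by 0.85 (FDR 4.34e-10) in the authors' deposited table. The splicing regulator Srsf3 rose by 0.44 (FDR 8.65e-10) and Srsf7 by 0.33 (FDR 4.84e-05) in the authors' deposited table. Of 90 splicing genes 8 rose and 5 fell, beside 5.04% and 4.88% of all genes. Hspd1, the mitochondrial chaperonin, fell by 0.31 (FDR 5.19e-07) and the taurine carrier Slc6a6 by 0.44 (FDR 5.85e-07) in the authors' deposited table. The largest changes in size belong to imprecisely measured genes, with Fam183b at -4.0 ± 0.97 (implied SE; FDR 0.00138) and Hist1h2bl at 2.82 ± 0.90 (implied SE; FDR 0.0227), a histone with near-identical copies, in the authors' deposited table. Inka2, an inhibitor of the kinase Pak4, combined a large change with a small FDR, at 1.80 ± 0.33 (implied SE; FDR 5.85e-06) in the authors' deposited table. Its implied SE, too, is above the upper quartile of all genes, 0.197.

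Other cell types were looked for by their markers because feeder cells or differentiated cells could add RNA. All 8 markers of pluripotent cells are in the table, and so are 8 of 13 trophoblast, 9 of 14 endoderm, 5 of 14 mesoderm, 5 of 15 neural and 8 of 15 fibroblast markers, but a table of changes gives no levels to check the cell type against. Of the pluripotent markers 2 fell, Tfcp2l1, at -0.42 (FDR 2.32e-07), and Esrrb, at -0.14 (FDR 0.0262), in the authors' deposited table. Of these markers of other cell types 3 passed. Col1a1 rose by 1.43 ± 0.47 (implied SE; FDR 0.032) and Tagln by 0.37 (FDR 0.0369), both of the fibroblast list, and the neural marker Tubb3 fell as given above, in the authors' deposited table. Col1a2, the partner chain of Col1a1, was at -0.55 (FDR 0.65) in the authors' deposited table. A wider list of 11 endoderm genes holds 1 that rose, the laminin chain Lama1 given above. The part of other cells in the matrix result was not tested.

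The RPLP1 and RACK1 lines, treated in the same way and with their own DMSO libraries, show which of these changes other removals shared. The authors' deposited tables list 1741 mRNAs past the threshold for RPLP1 (14.2%), of which 690 were higher (5.63%) and 1051 lower (8.58%), and 62 for RACK1 (0.481%), the latter with larger errors. Of the genes that rose after RPLP0 removal 79 also rose after RPLP1 removal, which is 12.9% of the one list and 11.5% of the other, and 82 fell there. For genes that fell the shared number was 109 (18.1% and 10.4%), and 29 rose there. Across 11951 genes the Spearman correlation of the RPLP0 and RPLP1 changes was 0.092, and across 12028 genes that of RPLP0 and RACK1 was -0.02; genes are not independent replicates, and these are descriptions.

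The difference between responses was tested gene by gene against the combined implied SEs, with Benjamini-Hochberg adjustment, which is approximate because no library values enter. By this normal test 868 of 11951 genes (7.26%) responded higher to RPLP0 than to RPLP1 removal and 581 (4.86%) lower, and with SEs enlarged 1.5 times 29 and 6 remained. Against RACK1 the counts were 228 of 12028 (1.9%) higher and 174 (1.45%) lower, and 2 and 1 with enlarged SEs. The counts therefore rest on the assumed error, and the genes named next also passed with the enlarged one.

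A pair of mevalonate enzymes responded differently to removal of the stalk proteins. Hmgcs1 was at -0.62 in the RPLP0 and 0.19 in the RPLP1 line in the authors' deposited tables, a difference of -0.81 ± 0.11 (SE). Idi1 differed by -0.64 ± 0.11 (SE), and the naive factor Tfcp2l1 by -0.54 ± 0.09 (SE). For the enzymes past squalene the median was -0.24 after RPLP0 and -0.32 after RPLP1 removal, with 9 of 12 lower in the latter. After RACK1 removal the medians of the mevalonate and sterol enzymes were 0.10 and 0.16, with none past the threshold.

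Other genes responded higher to RPLP0 than to RPLP1 removal, and Galnt2 had the smallest adjusted p among them. Galnt2, a Golgi enzyme that starts O-linked glycosylation, was at 0.58 after RPLP0 and -0.82 after RPLP1 removal in the authors' deposited tables, a difference of 1.40 ± 0.19 (SE). Eng differed by 1.13 ± 0.16 (SE), Perp by 1.10 ± 0.17 (SE) and Sdc4 by 0.93 ± 0.14 (SE), all higher after RPLP0 removal. The oligosaccharyltransferase gene Rpn1, at 0.24 and -0.33 in the authors' deposited tables, differed by 0.57 and is 1 of 2 genes of the import and glycosylation list that passed with enlarged SEs. As a list, drawn up after the values were seen, these 71 genes had a median of 0.10 with 17 higher and none lower after RPLP0 removal. After RPLP1 removal their median was -0.17, with 2 higher and 21 lower. The chaperones of the same compartment had medians below 0 in both lines, -0.14 and -0.22, with 8 and 11 of 22 lower.

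**Figure D4:**
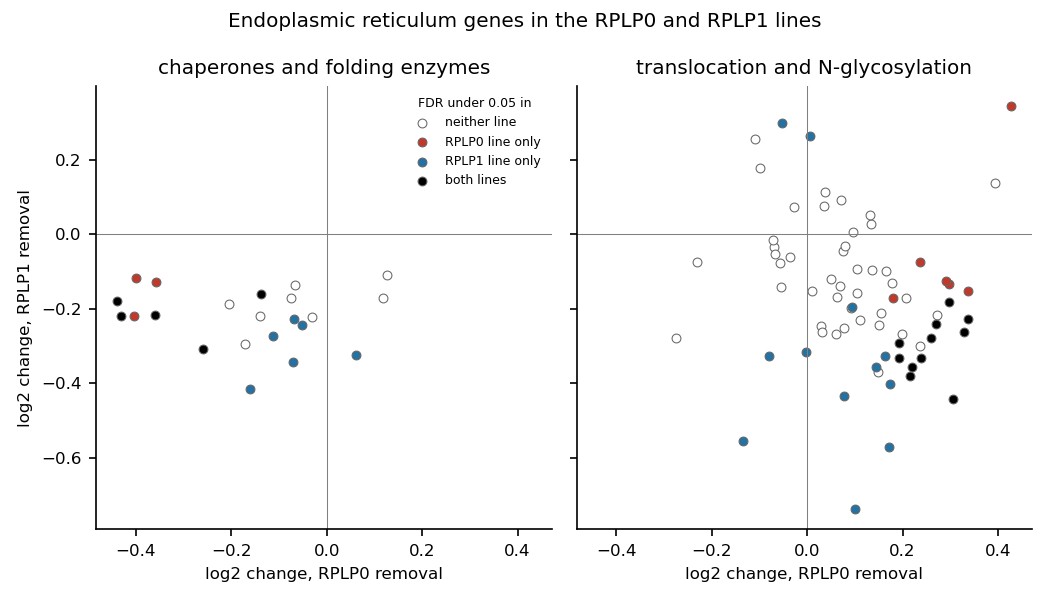
Each point is a gene of the endoplasmic reticulum, placed by its log2 fold change after RPLP0 removal (horizontal) and after RPLP1 removal (vertical), with chaperones on the left and the import and N-glycosylation list on the right; colours give the line in which the authors' FDR was under 0.05. Chaperones that passed lie below 0 on both axes except where the RPLP0 change did not pass. Of the import genes 17 lie to the right of 0 with RPLP0 calls, most of them below 0 on the vertical axis. The import list was drawn up after the values were seen.

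p53 targets also rose after RPLP1 removal. After RPLP1 removal the feedback regulators rose in 4 of 12 cases (median 0.17), as after RPLP0 removal, and Mdm2 was at 0.48 (FDR 6.4e-05) in the authors' deposited table. Of the arrest and repair targets 7 of 34 were higher and none lower after RPLP1 removal, with a median of 0.15 against 0.31. By the normal test 8 of these 34 responded higher to RPLP0 removal and 2 lower, and none passed with enlarged SEs. Of the death targets 4 of 20 were higher and 1 lower after RPLP1 removal, with a median of 0.02 against 0.27. By the normal test 7 of these 20 responded higher to RPLP0 removal, of which Perp passed with enlarged SEs. Amino acid transporters, with 15 of 20 lower and a median of -0.48 after RPLP1 removal, had a median of 0.04 after RPLP0 removal. By the normal test 8 of these 20 responded higher to RPLP0 removal, and none passed with enlarged SEs. The glycolysis median was -0.04 after RPLP1 and 0.07 after RACK1 removal, against -0.14. By the normal test 7 of 30 glycolysis genes responded lower to RPLP0 than to RPLP1 removal and 1 higher, and none passed with enlarged SEs.

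**Figure D5:**
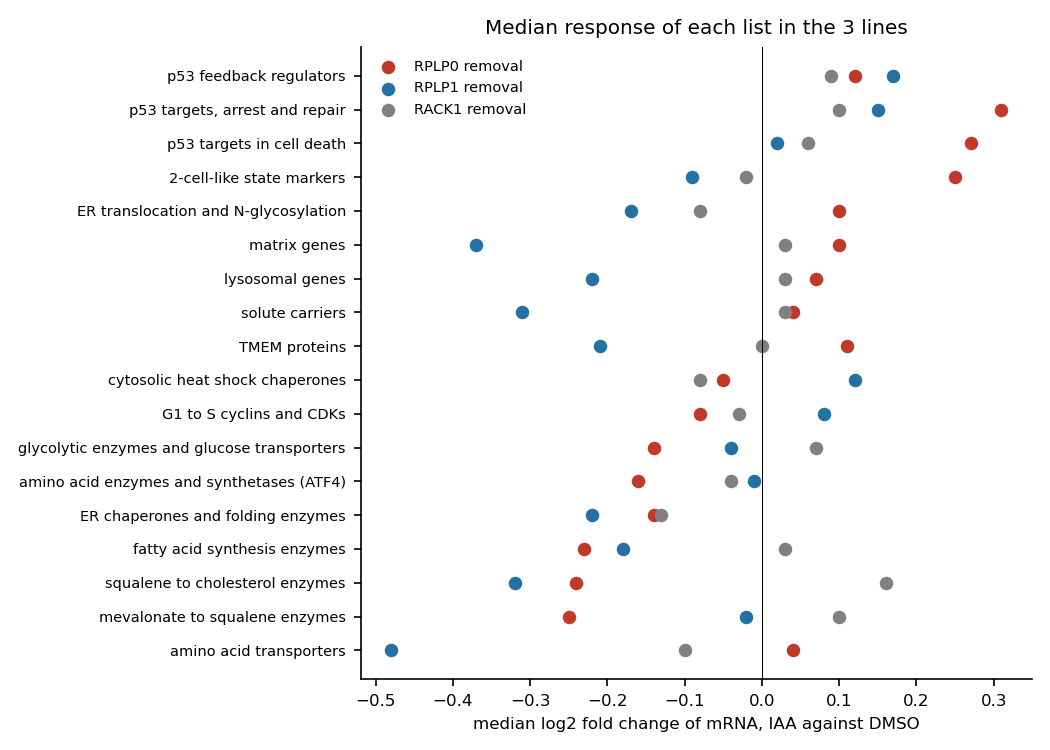
Points are the median log2 fold change of mRNA of each gene list after removal of RPLP0 (red), RPLP1 (blue) and RACK1 (grey), each IAA against DMSO in its own line. Death targets of p53 (0.27, 0.02 and 0.06) and import and glycosylation genes (0.10, -0.17 and -0.08) are given in that order. The import and glycosylation list was drawn up after the values were seen. Chaperones lie below 0 in all 3 lines, and the 2-cell-like list has 25, 16 and 14 measured members in the 3 lines.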

How the data were processed

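Polyadenylated RNA of the RPLP0 line was compared between 3 IAA and 3 DMSO libraries. The authors deposited a comparison table that holds, per the file headers, the mRNA change as a log2 fold change and its FDR, an adjusted p-value. The class code that the authors deposited beside them, another kind of number, marks genes with an mRNA FDR under 0.2 and was not used further. Not given in the sources used here: the aligner, how reads were counted, the annotation, the build, the test and any filter on low counts. Depth is unknown, and 0 columns of values per sample were left unused.

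Of its rows, 16 whose symbol a spreadsheet had turned into a date and 2 with a repeated symbol were left out. Each p-value was recovered by undoing the Benjamini-Hochberg step over the rows, and the implied SE is the change divided by the normal quantile of that p, which assumes that the authors adjusted over exactly these rows. Responses of lines were compared by a two-sided normal test of the difference (Benjamini-Hochberg over shared genes). The procedure was run on data simulated with normal errors of the implied size, so that run cannot check whether the implied SEs are right. No list was tested: 70 lists were described by counts and medians, and 3 more were added after the values were seen. The members and lists were chosen with earlier results of these data known. Genes were named by rule: the stalk genes, per direction the 15 with the smallest FDR and the 10 with the largest change, up to 8 passing and 4 other members per list, and 10 per direction between lines. Some genes that this rule names, and list members among them, are not reported here and were left out of the lists. RefSeq promoters (GRCm38.p6) matched 9723 of the 12335 genes by symbol. Python 3.11.15, numpy 2.4.6, pandas 2.3.3, scipy 1.17.1 and matplotlib 3.10.9 were used. Alternatives were other FDR thresholds, a minimum change of 0.25, all rows, precisely measured genes, centring, and other standard errors.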

Additional observations from a re-analysis of the deposited data

Results flagged for a closer look

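The gene-by-gene test of the difference between lines marked genes whose mRNA response to IAA was not the same after RPLP0 removal as after another removal. Against RACK1 removal 228 genes responded higher and 174 lower, and against RPLP1 removal 868 responded higher and 581 lower, counts that depend on the assumed standard errors as given under the processing below.

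Against RACK1 the higher genes with the smallest adjusted p were Kxd1 (difference of log2 changes 2.62), the mitochondrial leucyl-tRNA synthetase Lars2 (1.85), mt-Nd3 (1.03) and Gm21897 (1.15). Kxd1 and Lars2 owe their place to the RACK1 line, at -2.34 and -2.19 in the authors' deposited table, and not to RPLP0 removal, at 0.29 and -0.35. The authors' deposited tables have mt-Nd3 at -0.02 after RPLP0 and -1.05 after RACK1 removal, and Gm21897 at 0.37 and -0.78. The lower genes were Klf2 (-1.03), Pgp (-1.07), the immediate-early gene Egr1 (-1.10) and Smtnl2 (-0.85). Of these Egr1 was at 0.09 after RPLP0 removal and 1.19 after RACK1 removal in the authors' deposited tables. In the same order Klf2 was at -0.21 and 0.82, Pgp at -0.32 and 0.75, and Smtnl2 at -0.50 and 0.35, in the authors' deposited tables. With SEs enlarged 1.5 times Kxd1, Lars2 and Klf2 passed.

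Against RPLP1 the higher genes were Galnt2 (1.40), the receptor-like Ptk7 (0.78), the lysosomal Laptm5 (0.78) and endoglin Eng (1.13). Lower were Hmgcs1 (-0.81), Tfcp2l1 (-0.54), Idi1 (-0.64) and the Hsp40 chaperone Dnaja1 (-0.56). All 8 passed with the enlarged SEs. Dnaja1 was at -0.09 after RPLP0 removal and 0.47 after RPLP1 removal in the authors' deposited tables.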

How the results depend on the processing

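No paired analysis was possible because the tables hold no values per library, and for the same reason leaving out replicates and the planned count models (edgeR, DESeq2, a fit without a filter on low counts) were not run. Of 65 alternatives 48 kept a count within 1.5 times, or a median within its spread, and 17 did not. A count of genes called in a given direction cannot reverse, so the counts do not test direction. The list medians kept their sign among precisely measured members. The counts of all genes were 363 higher and 287 lower at an FDR of 0.01, and 1404 and 1327 at 0.2. Members measured precisely are those with an implied SE at or below the median of the table. Among them the genes of the p53 lists that rose numbered 17 and the 2-cell-like markers 5, by construction from fewer members. At an FDR of 0.2 the 2-cell-like markers that rose numbered 13. At an FDR of 0.01 the lower amino acid enzymes numbered 7 and the lower G1 to S genes 4. The differences between lines depend most on the standard errors. With a t quantile of 4 degrees of freedom the higher and lower genes were 920 and 853 against RACK1 and 1825 and 1590 against RPLP1, and with SEs enlarged 1.5 times 2 and 1, and 29 and 6. Centring on the median of all genes, 0.0015, left the list medians as they were to 2 decimals. The depth behind the values is unknown.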

Other observations

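Notch pathway genes, which pass signals between neighbouring cells, changed in both directions after RPLP0 removal, with 4 of 26 higher and 2 lower. The receptors Notch1 (0.26, FDR 0.00955) and Notch3 (0.22, FDR 0.0185), the ligand Jag1 (0.49, FDR 0.0028) and the coactivator Maml1 (0.36, FDR 0.000749) rose, while Notch4 (-0.46, FDR 0.00484) and Dtx1 (-0.90, FDR 0.00515) fell in the authors' deposited table. Of 64 lysosomal genes 7 rose and 2 fell, with the mannosidase Man2b1 (0.47, FDR 0.000153) and the protease Ctsd (0.23, FDR 0.00225) higher in the authors' deposited table. After RPLP1 removal 23 of the 64 fell and 1 rose.

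Of 37 genes of mTOR and its regulators 4 rose and 3 fell, with a median of 0.01. Inhibitors of mTORC1 were among both: Sesn2, Ddit4 and Ddit4l rose, the last by 0.68 (FDR 7.25e-05), while Sesn1, at -0.46 (FDR 0.0279), and Castor2, at -0.84 (FDR 0.013), fell in the authors' deposited table. The kinase gene Mtor was at 0.07 (FDR 0.53) in the authors' deposited table. Of 24 Hippo pathway genes 4 rose and 1 fell: the phosphatase Ptpn14, also known as a p53 target, rose by 0.73 (FDR 5.43e-10), the secreted YAP targets Cyr61 and Ctgf by 0.41 (FDR 0.000898) and 0.30 (FDR 0.000748), and Tead2 fell by 0.33 (FDR 0.000904), per the authors' deposited table. In the RPLP1 line Ctgf was at -0.29 (FDR 0.032) in the authors' deposited table. Smg5, a factor of nonsense-mediated decay, rose by 0.40 (FDR 4.52e-07) in the authors' deposited table, the single gene of 20 on that list to pass.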
